A study of Mus musculus with 24 samples.

Results

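Microglia that had taken up exosomes of one knockout, called KO1, were compared with microglia that had taken up exosomes of the other, called KO2. The comparison rests on 6 of the 24 samples of the series, 3 KO1 and 3 KO2 libraries, each group carrying the letters A, B and C. Of 20555 genes in the microglia table, 13950 varied over its 11 libraries and entered the test, and 13344 of these varied over the 6 KO1 and KO2 libraries. The other 5 libraries, PBS A and B and WT A, B and C, took part in the estimate of the spread and served as a reference.

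Slices of mouse brain were kept for 2 days with exosomes, small membrane vesicles that cells release, at 5 µg per slice, and PBS slices received buffer instead. All exosomes carried PKH67, a green membrane dye, and live microglia were then sorted by antibody, on CD45 together with weak staining for CD11b and CD49d. WT, KO1 and KO2 are read here as names of the donor cells of the exosomes, since the labels give exosomes or PBS as the treatment and no knockout of the mouse. The labels give neither the gene knocked out nor whether KO1 and KO2 are separate guides, clones or cultures. The series title names CEMIP, a protein that binds hyaluronan and promotes its breakdown. Every group is described as sorted for exosome signal, PBS included. The strain and age of the mice and the meaning of the letters are not given in the sources used here, so the p-values reflect only how far these libraries scatter, and part of that scatter may be technical.

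Exosomes deliver proteins, lipids and RNA to the cells that engulf them. Microglia, the resident macrophages of the brain, take up such vesicles readily. Their response to foreign material runs through Toll-like receptors and NF-kB to cytokines and chemokines, and through interferon regulatory factors to the type I interferon genes. Independent knockouts of the same gene are commonly set against each other to see how far the clones themselves differ, and KO1 minus KO2 is that contrast if both remove the same gene.

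Normalised counts were recovered from the deposited values and are called counts below. Each library held 27.2 to 29.8 M of them, and 10139 to 11292 genes lay above the floor of the table, the value of a gene with no reads, in the 6 KO1 and KO2 libraries. The gate genes matched the sort in part: Ptprc, which encodes CD45, had 1527 to 3990 counts over the 11 libraries, Itgam (CD11b) 429 to 3386 and Itga4 (CD49d) 19.7 to 100.4. Of the genes that define microglia, Csf1r, the receptor that sustains them, had 697 to 2038 counts. P2ry12, by contrast, was listed at 0 in every library other than KO1 B, which had 11.1, while Tmem119 reached at most 432 and Cx3cr1 at most 155. Of the markers described here, the label microglia therefore rests on Csf1r and the gate, since these 3 markers of the resting state were at or near 0. In bulk RNA, fewer cells of a type and less RNA per cell cannot be told apart. Border-associated macrophage markers (10 genes) summed to 7927 and 9443 counts in letter B of the knockouts and to 2640 to 5413 in letters A and C. Choroid plexus and ependyma markers (12 genes) summed to 10535 in KO2 B, nearly all of it Ttr at 9931, and to 28 to 887 in the other 5 knockout libraries. Oligodendrocyte markers (11 genes) summed to 5107, 9180 and 5221 in KO1 A, B and C and to 3198, 8671 and 5327 in KO2. Astrocyte markers (12 genes) summed to 437 to 1172 in KO1 and 551 to 1470 in KO2. KO1 A lay farthest from the other knockout libraries and had the lowest fitted quality weight, 0.632 against 0.866 to 1.32.

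Only Atp10a passed the test of KO1 against KO2, which is 0.00717% of the 13950 genes (1 gene higher in KO1 and 0 higher in KO2, limma, adjusted p under 0.05). Atp10a encodes a P4-type ATPase, a flippase that moves phospholipids between the leaflets of the plasma membrane, and lies at chr7:58656142-58830244 on GRCm38.p6. It had 403 counts in KO1 A, 633 in KO1 B and 270 in KO1 C. It was listed at 0 in all 3 KO2 libraries and in all 5 WT and PBS libraries, so no fold is given. The KO1 minus KO2 difference was 0.84 on the deposited variance-stabilised log2 scale (SE 0.0918, adjusted p = 0.0210). The 3 letters gave 0.82, 0.96 and 0.73. With the letter as a block the adjusted p was 0.138, and leaving out any single WT, KO1 or KO2 library also ended the call, at 0.0563 to 0.219. A filter on low values removes Atp10a, since its mean over the 11 libraries lay under 1 above the floor.

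At an unadjusted p under 0.05 the fit named 508 genes, 3.64% of those tested, with 231 higher in KO1 (1.66%) and 277 higher in KO2 (1.99%). With the letter as a block the number was 601 (4.31%). Among 5227 genes with a mean at least 1 above the floor, a level of about 702 counts, 0 passed when they were fitted alone and the lowest adjusted p was 0.999, with 143 at an unadjusted p under 0.05. In the fit of all genes 150 of them (2.87%) had such a p. The plot of difference against level shows the shape of this result.

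**Figure D1:**
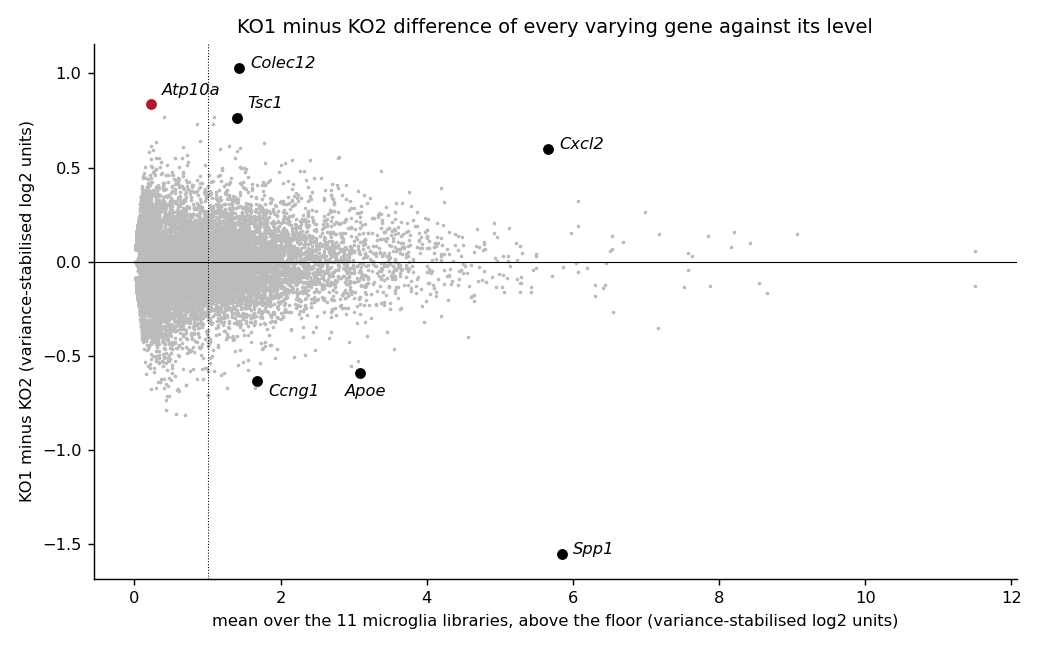
KO1 minus KO2 difference of each of the 13950 varying genes (vertical axis, variance-stabilised log2 units) against its mean height above the floor over the 11 microglia libraries (horizontal axis, same units). The red point is Atp10a, the gene that passed the test; black points are other genes named in the text, grey points all others, and the dotted line marks 1 above the floor. Spp1 at -1.55 and Colec12 at 1.03 are the 2 genes beyond 1 in size.

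The sizes of difference that the data bound depend on the scale. On the deposited scale the median absolute difference was 0.102, and 13731 genes (98.4%) had a 95% interval wholly between -1 and 1. That scale compresses low counts: 1 unit is worth 4.88-fold in counts at 1 above the floor and 2.10-fold at 3 above it. On log2 of the recovered counts plus 10, an alternative chosen after seeing the data, 4320 of 13950 intervals (31.0%) lay within 2-fold, and 2901 of the 5227 better expressed genes (55.5%). The median half-width of the interval for those better expressed genes was 0.698 on that scale. For the remaining genes the interval still held differences of 2-fold or more, so a missed threshold does not show that KO1 and KO2 acted alike on them.

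Below the threshold, the genes that separated the knockouts most clearly were of varied function. The rule took, in each direction, the genes of smallest p whose 3 KO1 and 3 KO2 libraries did not overlap. Tsc1 (chr2:28640993-28691172) encodes hamartin, a subunit of the complex that restrains the growth kinase mTORC1. It had 3465, 3010 and 2690 counts in KO1 A, B and C and 1290, 391 and 1317 in KO2. All KO1 libraries lay above all others: WT had 1173 to 1984 and PBS 636 and 1309. The mean was 3055 ± 389 (SD, n = 3) in KO1 and 999 ± 527 (SD, n = 3) in KO2, a ratio of 3.06, and the difference of 0.76 (SE 0.158) missed the threshold at an adjusted p of 0.492. Ttll4, a tubulin-modifying enzyme, had 2348, 2654 and 1550 counts in KO1 against 1062, 763 and 364 in KO2, and Ampd2, an AMP deaminase, 2244, 2540 and 2467 against 769, 1432 and 1173. Both had an adjusted p of 0.610. KO1 stood above WT and PBS for Tsc1 and Ttll4, whereas for Ampd2 the WT libraries (1707 to 1966) and PBS libraries (1971 and 2446) lay between KO2 and the top of KO1.

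Several of the other genes higher in KO1 act in mitochondrial or ribosomal RNA metabolism. Polrmt, the mitochondrial RNA polymerase, had 2165, 2744 and 2904 counts in KO1 against 1055, 1644 and 1014 in KO2. Lrpprc, which stabilises mitochondrial mRNA, had 4639, 5937 and 3418 against 3125, 2842 and 2070. Utp20, a factor of ribosomal RNA processing, had 1391, 2554 and 2914 against 786, 1070 and 518. No theme is claimed from 3 genes that were picked by their p, and the ratio of mean counts for all of these ran from 1.74 to 2.89. The set also held Slc52a2 (a riboflavin transporter), Sbno1, Srpr (a receptor of the signal recognition particle) and Heatr6. Their differences were 0.45, 0.49, 0.37 and 0.55, and adjusted p was 1.00 for each. Srpr was the most abundant and the steadiest, at 17277, 18412 and 16784 counts in KO1 and 13505, 13966 and 12898 in KO2.

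Higher in KO2 was first Ccng1 (chr11:40748552-40755309), which encodes cyclin G1, a target of p53. KO1 had 773, 1371 and 2038 counts and KO2 3106, 3349 and 3189. WT had 2324 to 2811 and PBS 2566 and 2884, so the KO1 libraries lay below all others and KO2 lay above all others. The mean was 1394 ± 632 (SD, n = 3) in KO1 and 3215 ± 124 (SD, n = 3) in KO2, and the difference of -0.63 (SE 0.134) had an adjusted p of 0.541. Of the other 5 better expressed p53 targets none showed a like size: Cdkn1a, Bax, Gadd45a, Pmaip1 and Mdm2 differed by -0.02, -0.07, -0.07, 0.05 and 0.10. Zfyve1, a protein of the membrane from which autophagosomes form, had 432, 467 and 608 counts in KO1 and 1212, 1220 and 1112 in KO2, with WT between them at 759 to 963 and PBS above both at 1319 and 1388. Its difference of -0.35 (SE 0.0939) had an adjusted p of 1.00.

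The remaining genes of this direction included membrane and trafficking proteins, again with adjusted p of 1.00 for each. Spns1, a lysosomal lipid transporter, had 2344, 3053 and 4409 counts in KO1 and 5972, 5323 and 4668 in KO2. Clcn3, an endosomal chloride-proton exchanger, had 155, 774 and 805 against 1269, 1224 and 1475. Gramd1a, which carries sterol from the plasma membrane to the endoplasmic reticulum, had 126, 580 and 586 against 1068, 1419 and 817. Hook3, a dynein adaptor, had 252, 576 and 1004 against 1597, 1342 and 1166. For Clcn3, Gramd1a and Hook3 the lowest library was KO1 A, which also lay apart in general. Pias2 (a SUMO ligase), Abcf3, Zdhhc7 (a palmitoyltransferase), Mtrex (an RNA helicase of nuclear RNA decay), Mpi (mannose phosphate isomerase) and Ndufa3 (a subunit of respiratory complex I) had differences of -0.53, -0.51, -0.47, -0.66, -0.43 and -0.32.

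**Figure D2:**
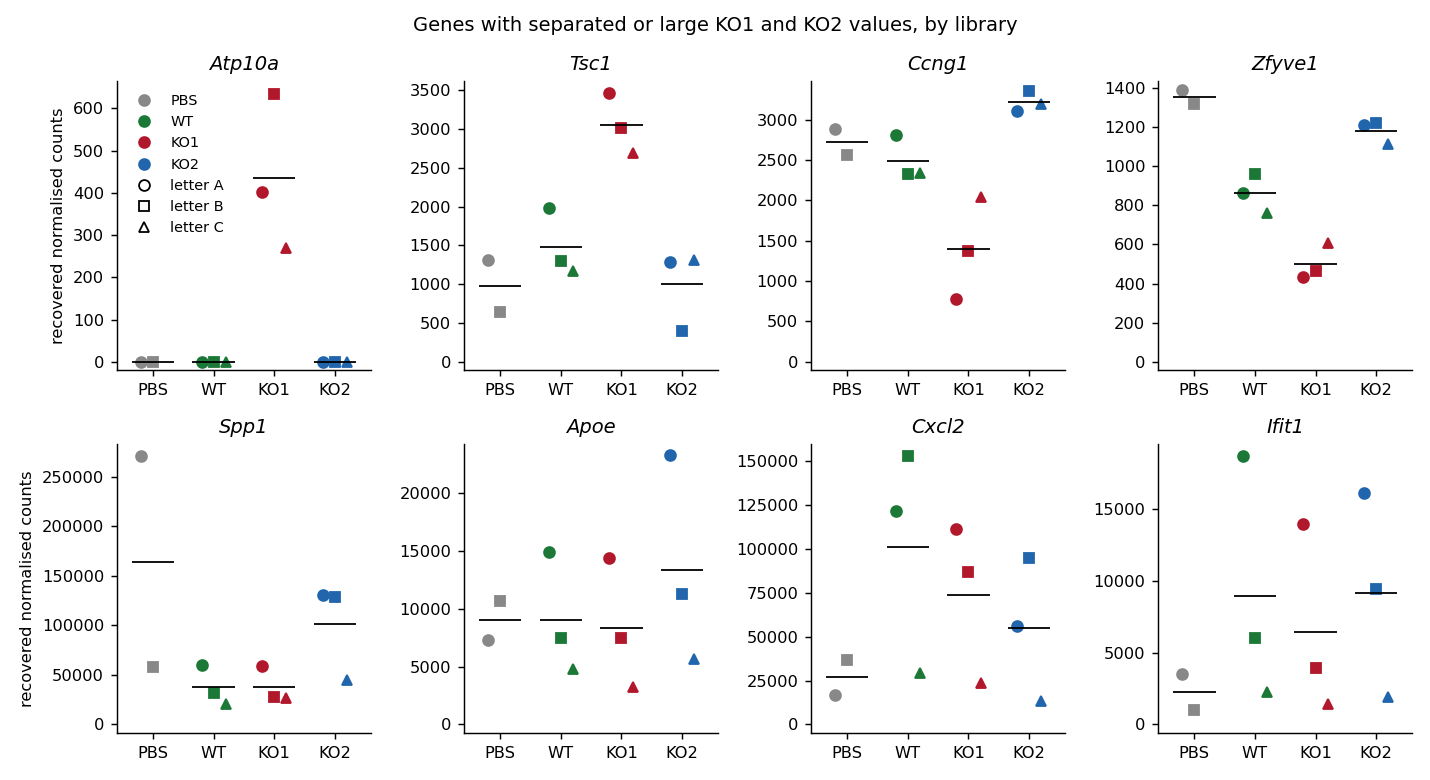
Recovered normalised counts (vertical axis, linear, each panel with its own range) of 8 genes in each of the 11 microglia libraries, by group (horizontal axis). Colours are groups, marker shapes are letters and the line is the group mean. Atp10a is at 0 outside KO1; for Tsc1, Ccng1 and Zfyve1 the KO1 and KO2 points do not overlap, and for Apoe, Cxcl2 and Ifit1 letter C lies lowest in WT, KO1 and KO2 alike.

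The widest difference on the deposited scale, which compresses low counts, was that of Spp1 (chr5:104435111-104441053), which encodes osteopontin, a secreted protein of activated microglia. KO1 had 58948, 27842 and 27181 counts and KO2 131241, 129080 and 44830. KO2 was the higher in each letter, although KO2 C lay below KO1 A. WT had 60518, 32143 and 20557, close to KO1 letter by letter, and PBS had 271070 and 57716. The mean in KO1 was 0.373 of that in KO2, so by mean counts the gap was narrower than that of Tsc1, and its place as the widest holds only on the deposited scale. The difference was -1.55 (95% interval -3.10 to -0.01, unadjusted p = 0.0492, adjusted p = 1.00), and leaving out single libraries moved it between -2.15 and -1.25. With the letter as a block, limma gave Spp1 an unadjusted p of 0.00331 and an adjusted p of 0.962. Colec12, a scavenger receptor of the collectin family, was the only gene beyond 1 on that scale in the other direction, at 1.03 (95% interval -0.42 to 2.47, adjusted p = 1.00). It had 378, 4169 and 6221 counts in KO1 and 0, 270 and 2792 in KO2, so the letters spread it more widely than the knockouts did.

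Genes seen in one knockout and not in the other were few. In 32 genes all 3 KO2 libraries were at the floor and all 3 KO1 libraries above it, and in 43 genes the reverse held. A further 8378 genes lay above the floor in all 6 libraries and 606 at the floor in all 6. Ubiquitous genes are also listed at 0 in single libraries of this table, so an exact 0 is given as listed and not as absence. Among the 238 genes of the authors' deposited table, 4 of the 5 with the greatest excess in KO2 were of this kind: Wdr35, a protein of cilium transport, was listed at 0 in all 3 KO1 libraries and had 158, 444 and 584 counts in KO2. Lpcat2, a lysophospholipid acyltransferase, had 724, 174 and 225 in KO2, Tspan17 377, 186 and 274, and Zcwpw1 277, 159 and 332. Wdr35 was above 0 in all 5 WT and PBS libraries, at 30.9 to 699 counts, whereas Lpcat2, Tspan17 and Zcwpw1 were listed at 0 in 1 or more of them. The lowest adjusted p of the 4 was 0.292, for Wdr35.

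That deposited table was drawn up by the authors on these same libraries to find genes that differ anywhere among the 4 groups, so it is not independent evidence on KO1 and KO2. Of its 238 genes, 120 were higher in KO1 and 118 in KO2. Atp10a passed, 46 (19.3%) had an unadjusted p under 0.05, beside 3.64% of all genes, and the groups did not overlap in 45, beside 6.95% of the 13344 genes that varied over the 6 libraries. Plau, the urokinase protease, was in this set and had 4647, 1851 and 61.8 counts in KO1 and 315, 356 and 117 in KO2. Its ratio of mean counts, 8.33, came from letters A and B, and in letter C the difference was -0.07. WT resembled KO1 by letter, with 2575, 2338 and 201, and PBS had 112 and 182.

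Within letters, the differences between the knockouts did not repeat from letter to letter. Over 5223 genes with a mean over the 6 libraries at least 1 above the floor, the median absolute difference between KO1 and KO2 was 0.202 in letter A, 0.167 in letter B and 0.139 in letter C. Between KO1 and KO2 libraries of different letters it was 0.168 to 0.210, and between libraries of one knockout 0.168 to 0.221. The differences exceeded 1 for 56 genes in letter A, 20 in letter B and 6 in letter C. Across these genes the KO1 minus KO2 differences of the letters were nearly unrelated, with Pearson's r of -0.03 for A and B, -0.08 for A and C and 0.06 for B and C. Genes are not independent replicates, and these values are a description.

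A gene kept its direction in 3 of 3 letters in 2509 of 13344 cases (18.8%), split into 1251 higher in KO1 (9.38%) and 1258 higher in KO2 (9.43%). In the 5223 better expressed genes it did so in 1243 (23.8%). The 3 KO1 and 3 KO2 libraries did not overlap in 927 genes (6.95%), 449 with KO1 higher (3.36%) and 478 with KO2 higher (3.58%), and in 385 (7.37%) of the better expressed genes, 207 with KO1 higher (3.96%) and 178 with KO2 higher (3.41%). These shares are the background for the single genes described above.

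The letter held more of the variation than the knockout did. In the 6 libraries the letter held 56.6% of the summed squares over genes, the knockout 13.9% and the remainder 29.5%. Averaged per degree of freedom the mean squares were 0.0795 for the letter, 0.0389 for the knockout and 0.0414 for the remainder, so the knockout stood no higher than the remainder. The first principal component, 30.1% of the variance over the 11 libraries, placed letter A highest and letter C lowest in all 3 exosome groups: 13.48, 1.28 and -11.20 in KO1, 8.85, 4.07 and -10.40 in KO2 and 12.75, 5.07 and -9.87 in WT. PBS A and B, at -7.89 and -6.13, lay beside the letter C libraries.

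**Figure D3:**
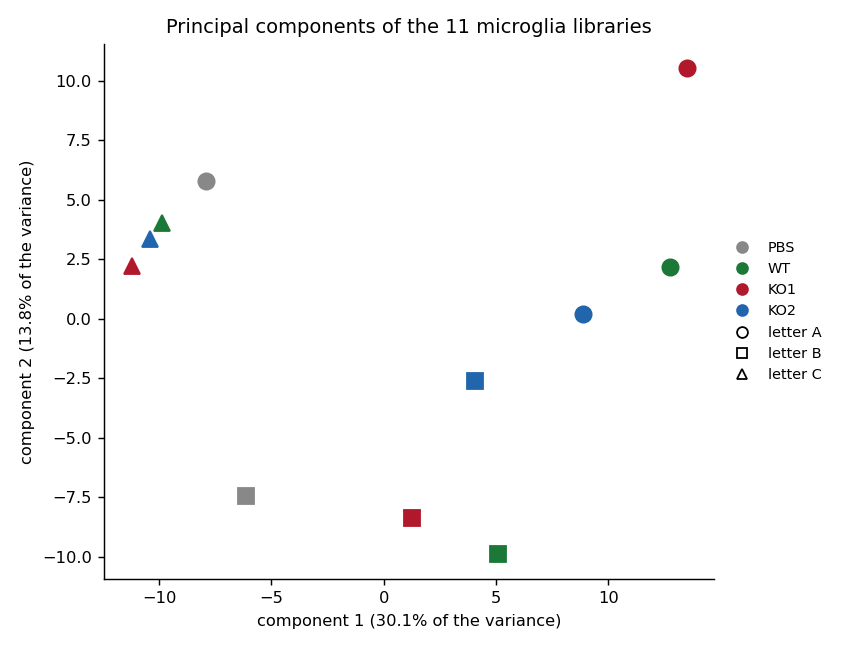
First (horizontal) and second (vertical) principal component of the 11 microglia libraries, in component units with the share of variance on each axis. Colours are groups and marker shapes are letters. The 3 letter C libraries lie together at -9.87 to -11.20 on the first component near both PBS libraries, and KO1 and KO2 are not separated along either axis.

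Against WT and PBS, each knockout gave at most 2 calls without the block. In limma, KO1 minus WT called Atp10a (1 gene, 0.00717%), with 523 genes at an unadjusted p under 0.05 (3.75%), and KO2 minus WT called 0, with 430 genes at an unadjusted p under 0.05 (3.08%). KO1 minus PBS called 2 genes (0.0143%), Atp10a and Pip4k2c, with 697 at an unadjusted p under 0.05 (5.00%), and KO2 minus PBS called 0, with 565 at an unadjusted p under 0.05 (4.05%). Pip4k2c, a phosphoinositide kinase, had 1447 and 1876 counts in PBS and was listed at 0 in every exosome library other than KO2 C, which had 125. It was picked here because it passed; its differences from PBS were -1.43 (adjusted p = 0.0317) in KO1 and -1.23 (adjusted p = 0.171) in KO2. Both calls of KO1 minus PBS were lost when WT A, WT B, any KO1 library, KO2 A or KO2 B was left out. These comparisons share their WT and PBS libraries.

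With the letter as a block, the comparison with PBS called 9 genes in KO1 and 8 in KO2. Acod1, which makes the antimicrobial metabolite itaconate, rose by 2.25 in KO1 and 2.06 in KO2 (adjusted p = 0.00388 and 0.00723). The chemokine genes Ccl5 (2.72 and 2.76), Cxcl1 (1.72 and 1.61), Ccl2 (1.40 and 1.41) and Cxcl3 (1.89 and 1.80) rose in both. Cxcl2 at 2.28 and Sod2 at 1.19 passed in KO1, where KO2 had 1.68 and 0.70, and Ifit1 at 1.83 and Fcgr1 at 1.19 passed in KO2, where KO1 had 1.36 and 0.73. None of these 4 passed in KO1 minus KO2. PBS has no letter C library in the table, and in letter C Acod1 lay below both PBS libraries in every exosome group: it had 19733, 11240 and 514 counts in KO1, 13688, 11656 and 368 in KO2, 26006, 19306 and 629 in WT, and 2781 and 1321 in PBS. The block fit thus takes the difference from PBS from letters A and B. It assumes that PBS shares the letter effect, which PBS showed only weakly. Deviations of PBS libraries from their group mean correlated with those of same-letter exosome libraries at 0.02 to 0.15.

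In the gene lists no gene passed, and the directions varied between lists and letters. None of the 592 list members tested passed in KO1 minus KO2, beside 0.00717% of all genes. Over all 5227 better expressed genes 2673 were higher in KO1 and 2554 in KO2, with a median difference of 0.00380. Among inflammatory cytokines and prostaglandin synthesis 9 of the 10 better expressed members were higher in KO1, with a median of 0.236, the highest of 38 lists. Ptges, a prostaglandin E synthase, had 24054, 9172 and 2996 counts in KO1 and 6409, 13575 and 1812 in KO2, and Ptgs1, a cyclooxygenase, 1588, 3287 and 1205 against 374, 1253 and 1347. The cytokine gene Il1b had 11567, 6408 and 592 counts against 7843, 4521 and 281, while Tnf differed by -0.01. The list's median was 0.601 in letter A, 0.171 in letter B and -0.0509 in letter C. Over all 18 members tested the median was 0.177, and it went to -0.069 without KO1 A and to 0.365 without KO1 C. Here and in the lists below, leaving out a KO1 or KO2 library makes the letters of KO1 and KO2 unequal. The fit has no term for the letter.

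CXC chemokines, which attract neutrophils and lymphocytes, were higher in KO1 in 7 of 7 better expressed members, with a median of 0.105. Cxcl2 led with a difference of 0.60 (95% interval -1.39 to 2.58), from 111176, 86517 and 23746 counts in KO1 and 56271, 94975 and 13632 in KO2. Cxcl5 had 1922, 5111 and 48.8 against 2272, 2753 and 0. By letter 3, 4 and 6 of the 7 were higher in KO1 in A, B and C, with medians of -0.0307, 0.133 and 0.288, and no member had the same direction in 3 of 3 letters. Over all 10 members tested the median was 0.120, and it went to -0.254 without KO2 C and to 0.448 without KO1 C. NF-kB subunits and targets were higher in KO1 in 14 of 16, with a median of 0.108 and letter medians of 0.00476, 0.224 and 0.0143, while the median over all 20 members tested, 0.103, went to -0.015 without KO2 C and to 0.217 without KO1 C. Sod2, the mitochondrial superoxide dismutase, had 17534, 18966 and 6706 counts against 12965, 11799 and 4896, higher in each letter, with an adjusted p of 1.00. With the letter as a block, limma gave Sod2 an unadjusted p of 0.00612 and an adjusted p of 0.962. Bcl2a1d, of a family of near-identical genes whose reads the counting can split, had 704, 3787 and 1626 against 828, 2338 and 371. CC chemokines had 5 of 10 higher in KO1 and a median of 0.00101. Ccl9, the member with the widest fitted difference, gave 1.24 in letter A and -0.77 and -1.31 in letters B and C.

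Among the sensors upstream, 2 of 9 Toll-like receptors and adaptors were higher in KO1, with a median of -0.0983. Tlr2, a receptor of bacterial lipoproteins, had 7580, 6456 and 2533 counts in KO1 and 5207, 3480 and 1562 in KO2. Tlr4, the receptor of lipopolysaccharide, went the other way with 1187, 1026 and 1319 against 2803, 2212 and 1612 and did not overlap. The differences were 0.48 and -0.39, with an adjusted p of 1.00 for both. With the letter as a block Tlr2 had an unadjusted p of 0.000959 and an adjusted p of 0.669.

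Type I interferon effectors turned with the letter. In letter A 17 of the 23 better expressed members were higher in KO1, in letter B 0 of 23 and in letter C 16 of 23, with medians of 0.255, -0.675 and 0.0868. Over all letters 5 of 23 were higher in KO1, with a median of -0.0926. Over all 28 members tested the median was -0.081, and it ran from -0.509 without KO1 A to 0.217 without KO1 C. Rsad2, the antiviral protein viperin, had 55491, 16030 and 2165 counts in KO1 and 37001, 36420 and 2702 in KO2. Isg15, a ubiquitin-like protein, had 22369, 7251 and 2872 against 12492, 15037 and 3626, and Ifit1, which binds viral RNA, 13939, 3925 and 1399 against 16072, 9406 and 1912. In both knockouts letter C was low, and letter B was higher in KO2 than in KO1 for all 3 genes. The list's median level on the deposited scale was 12.87, 11.45 and 11.11 in KO1 A, B and C, 12.59, 12.11 and 11.08 in KO2, 12.75, 11.72 and 11.45 in WT, and 11.12 and 11.05 in PBS. KO2 B is also the library with the high choroid plexus sum of 10535; its part in this result was not tested. Ifi44 and the Slfn and Ifit3 genes belong to clusters of similar genes, so their counts are less certain.

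**Figure D4:**
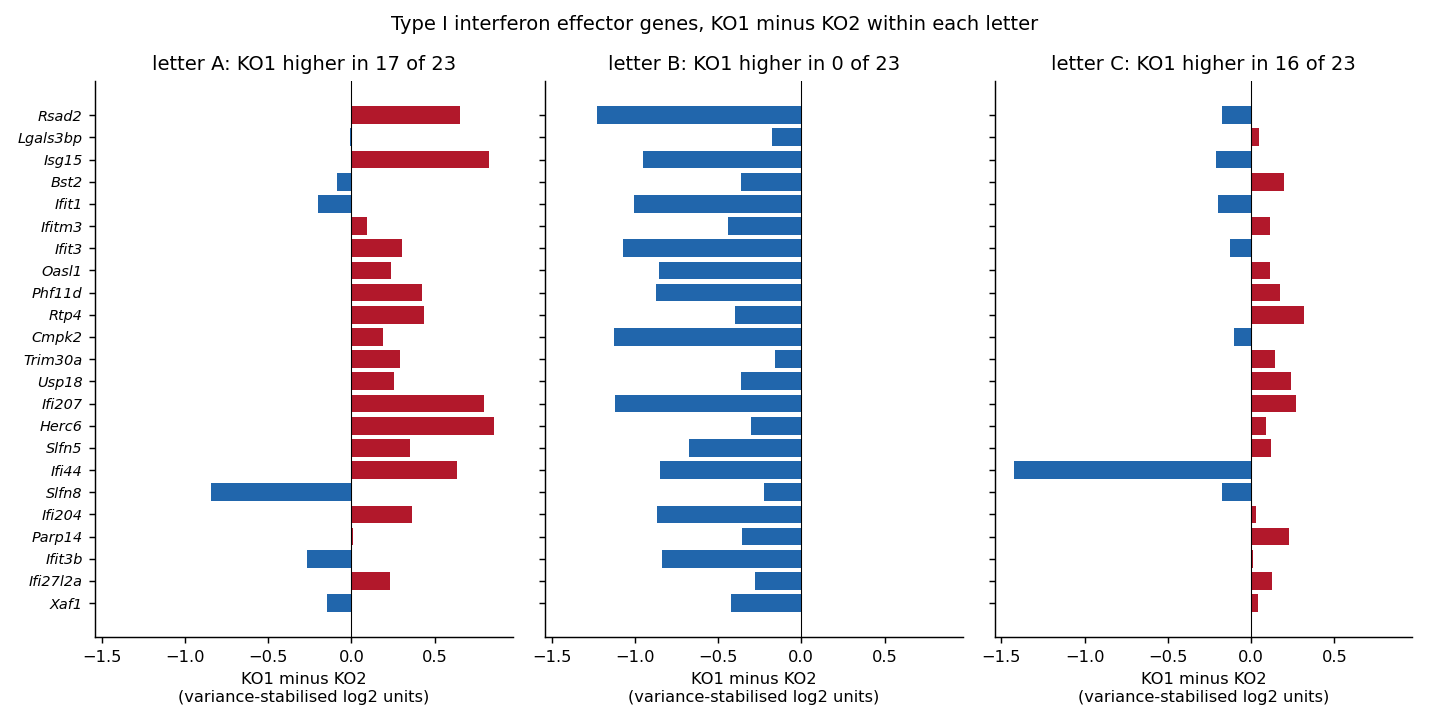
KO1 minus KO2 difference (horizontal axis, variance-stabilised log2 units) of each of 23 type I interferon effector genes with a mean at least 1 above the floor, in letters A, B and C. Red bars are higher in KO1 and blue bars higher in KO2, and genes are ordered by their mean level. KO1 is higher in 17, 0 and 16 of the 23.

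The regulators of that response did not pass either. Interferon transcription factors and sensors had letter medians of 0.0597, -0.260 and 0.0456, with 5 of 11 higher in KO1. Stat2, a signal transducer of the interferon receptor, had the widest gap, at 2459, 1434 and 444 counts in KO1 and 4872, 2493 and 1160 in KO2. It was higher in KO2 in each letter (difference -0.47, adjusted p = 1.00). With the letter as a block, limma gave Stat2 an unadjusted p of 0.00482 and an adjusted p of 0.962. Zbp1, a sensor of left-handed nucleic acids, had 2972, 906 and 992 against 4906, 2119 and 898. Of the interferon-inducible GTPases only Irgm1 and Igtp were well expressed, with differences of -0.10 for both.

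Antigen presentation on MHC class II was lower in KO1 in 4 of 4 better expressed members, with the lowest median of the 38 lists, -0.225, and letter medians of -0.193, -0.309 and -0.213. Cd74, the invariant chain, had 3310, 5791 and 1011 counts in KO1 and 4557, 7888 and 1150 in KO2. Cd86, a co-stimulatory ligand, had 14854, 13172 and 4899 against 16514, 15784 and 9025. H2-Ab1 and the protease Ctss differed by -0.20 and -0.16. KO2 was the higher in each letter for Cd74 and Cd86, and the spread between letters was larger than either gap. With the letter as a block, which takes out that spread, limma gave unadjusted p of 0.143 for Cd74 and 0.0474 for Cd86. The adjusted p was 0.962 for both. All 11 members tested, the weakly expressed ones included, gave 1 higher and 10 lower in KO1, with a median of -0.162 that went to 0.021 without KO1 C and to -0.326 without KO2 C. MHC class I presentation had 6 of 13 higher in KO1. H2-Q4, of a multigene family whose reads can be shared, differed by 0.31 and Psme2 by -0.23.

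No lysosomal or lipid gene passed. Of 16 lysosome genes 4 were higher in KO1 (median -0.0854), of 9 cathepsins and legumain 3 (median -0.114) and of 9 lipid efflux and storage genes 3 (median -0.133). The letter medians were -0.149, -0.00147 and -0.0933 for lysosome, -0.0438, -0.132 and -0.361 for cathepsins and legumain, and -0.280, -0.0837 and 0.0595 for lipid efflux and storage. In letter B 8 of the 16 lysosome genes, and in letter C 5 of the 9 lipid genes, were higher in KO1. Psap, the precursor of the saposins that aid lipid breakdown, had 103215, 119166 and 108476 counts in KO1 and 137221, 112299 and 159578 in KO2. Lipa, the acid lipase, had 19904, 32596 and 23857 against 46347, 24717 and 29481, so only letters A and C had KO2 higher. Apoe, the lipoprotein that microglia secrete on activation, had 14344, 7501 and 3220 counts in KO1 and 23222, 11225 and 5609 in KO2. Its 3 letters gave -0.69, -0.51 and -0.57. Leaving out single libraries, which can leave KO1 and KO2 with unequal letters, moved the difference of -0.59 to between -1.05 and -0.11. The levels were highest in letter A and lowest in letter C in both groups and overlapped (SE 0.522, adjusted p = 1.00). That SE, from the fit without the letter, includes the spread between letters. With the letter as a block, limma gave Apoe an unadjusted p of 0.0413 and an adjusted p of 0.962. Ctsl and Ctsc differed by -0.32 and -0.20, and Fabp5, a fatty acid binding protein, by -0.33, which came from letter B alone at -1.12.

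Of the disease-associated microglia genes, a programme known from neurodegeneration that includes Spp1 and Apoe, 5 of 14 were higher in KO1 with a median of -0.0495. Trem2, the receptor that drives the programme, had 1222, 1104 and 1180 counts in KO1 and 981, 1162 and 3205 in KO2. Homeostatic microglia genes had 3 of 6 higher in KO1 and a median of 0.000737, and Csf1r and Cst3 differed by 0.00 and -0.16. Among phagocytosis receptors 4 of 9 were higher in KO1. Fcgr1, a receptor of antibody-coated targets, had 5095, 1486 and 1812 counts against 7058, 3899 and 2526 and was higher in KO2 in each letter. With the letter as a block, limma gave Fcgr1 an unadjusted p of 0.00785 and an adjusted p of 0.962. Complement had 2 of 7 higher in KO1, with C1qc at 0.12. Microglial transcription factors had 7 of 9 higher in KO1 (median 0.0745), with Irf8 at 0.21 and Runx1 at 0.11.

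The genes of exosome release or sorting, and those of hyaluronan, were measured in the recipient microglia. With the knockouts read as those of the donor cells, their levels do not describe the added vesicles or CEMIP in the donors. Tetraspanins and exosome release had 6 of 13 higher in KO1, with a median of -0.0299. Tsg101, a subunit of the ESCRT machinery, had 201, 237 and 108 counts in KO1 and 1266, 386 and 1154 in KO2. The libraries did not overlap, the mean in KO1 was 0.195 of that in KO2, and the adjusted p was 1.00 (difference -0.45, SE 0.193). WT had 714 to 1208 and PBS 370 and 2148, so KO1 lay below all other libraries. Its partner Pdcd6ip (ALIX) differed by 0.23. Cemip itself was listed at 0 in 10 of the 11 libraries and had 5 counts in KO1 C. If the knockouts are in the donor cells, as read here, that does not check the labels. Of the hyaluronan genes only Hyal1, Hyal2 and the receptor Cd44 were well expressed. Hyal1, a lysosomal hyaluronidase, had 664, 689 and 1925 counts in KO1 and 2195, 1578 and 2322 in KO2 (difference -0.40, unadjusted p = 0.0263, adjusted p = 1.00). Hyal2 differed by 0.00 and Cd44 by -0.16.

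Metabolic and housekeeping lists sat near 0. Glycolysis had 12 of 15 members higher in KO1, a median of 0.0695 and letter medians of 0.0856, 0.135 and 0.123. Hk1 and Pfkl, a hexokinase and a phosphofructokinase at the head of the pathway, differed by 0.24 and 0.26, and Hk1 did not overlap, with 2004, 1966 and 3121 counts against 1445, 1660 and 1902. Hif1a, the oxygen-regulated factor that drives glycolytic genes, had 3768, 2880 and 2911 against 1703, 2548 and 1896, also without overlap (adjusted p = 1.00). It was taken from the hypoxia response list, where 2 of 5 better expressed members were higher in KO1, with a median of -0.0889. For Hk1 and Hif1a alike both PBS libraries lay above all KO1 libraries, at 3266 and 3501 for Hk1 and 3870.5 and 3798.6 for Hif1a. WT overlapped KO1, with 1138 to 2121 for Hk1 and 1476 to 3139 for Hif1a. Nuclear-encoded oxidative phosphorylation had 13 of 22 higher (median 0.0312) and cytosolic ribosomal proteins 12 of 24 (median 0.00256), with Rpl3 at -0.28 and Rps27 at 0.19 as the ribosomal genes farthest from 0. Cholesterol synthesis, the unfolded protein response, immediate early genes and autophagy had medians between -0.0551 and 0.0387. The cell cycle list had only 4 better expressed members, and Mcm2 and Mcm3 differed by 0.17 and -0.11. Over the 38 lists with a value the medians lay between -0.225 and 0.236, and in 9 lists the 3 letters gave medians of one sign.

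No member of the smaller effector programmes passed. Nitric oxide, itaconate and arginine genes were higher in KO1 in 7 of 7 better expressed members (median 0.0856), with letter medians of 0.292, 0.0900 and -0.122; Acod1 differed by 0.19 and Arg2, an arginase, by 0.38. Alternative activation had 3 of 4 higher, led by Tgm2, a transglutaminase, with 14230, 5007 and 6480 counts in KO1 and 5385, 4240 and 5136 in KO2 (difference 0.56, adjusted p = 1.00). TGF-beta and BMP signalling had 7 of 10 higher, and its receptor gene Tgfbr1 gave -0.90 in letter A and 1.23 in letter B. Heat shock chaperones had 3 of 11 higher (median -0.0780), with Hsph1 at 0.33 and Dnaja1 at -0.23. Extracellular matrix and proteases had 5 of 9 higher, with Thbs1, the matrix protein thrombospondin, at -0.37 and the protease Adamts1 at -0.32. Purinergic and ion channel genes had 2 of 6 higher, with the proton channel Hvcn1 at 0.31 and the potassium channel Kcnk13 at -0.21. Cytoskeleton and migration had 6 of 14 higher, with Vim at -0.19 and Pfn1 at -0.18, and oxidative defence and iron 8 of 18, with Slc7a11, a cystine transporter, at 0.21.

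**Figure D5:**
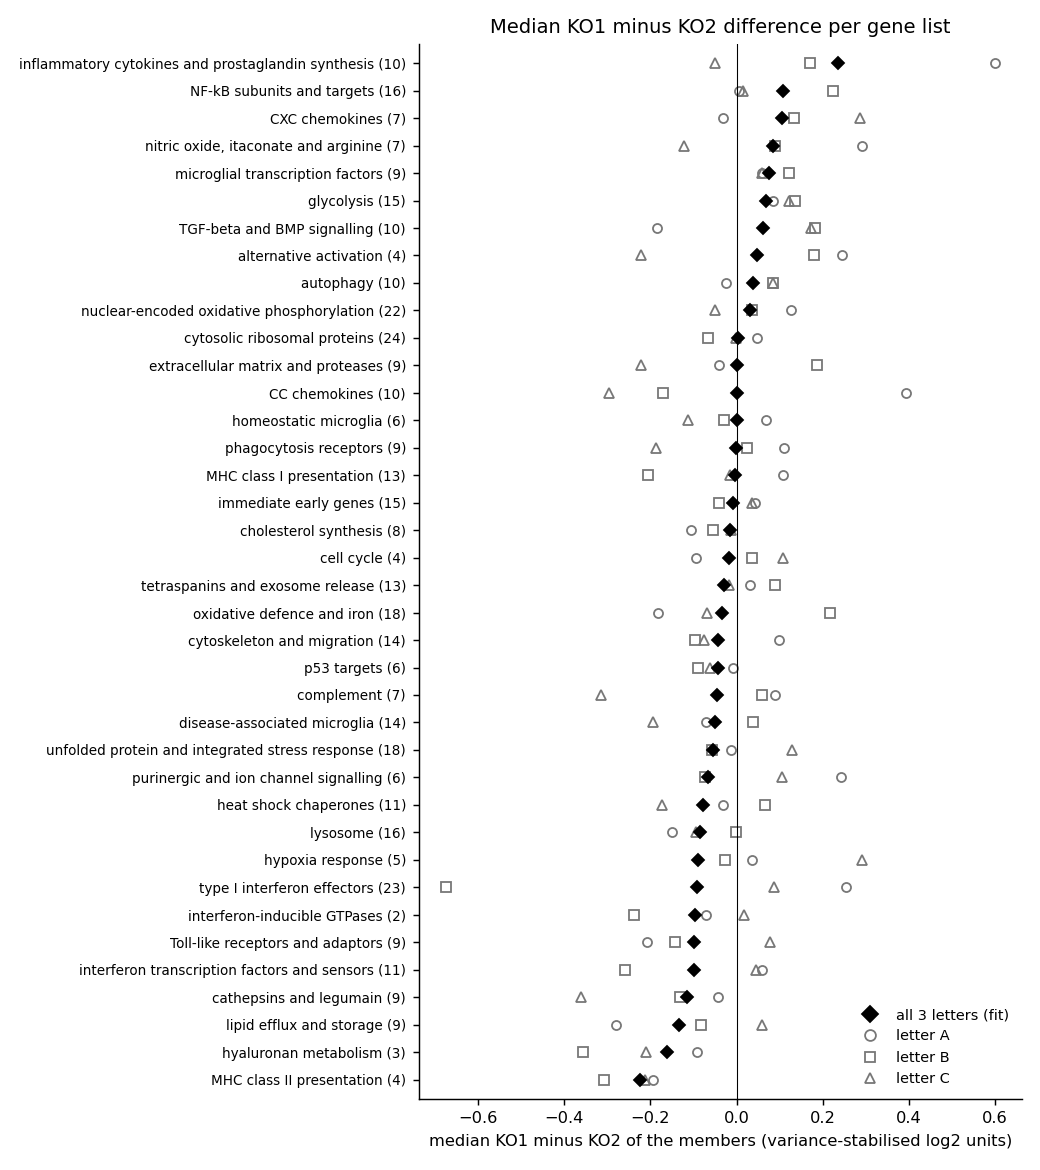
Median KO1 minus KO2 difference (horizontal axis, variance-stabilised log2 units) over the better expressed members of 38 gene lists, with the number of members in brackets. Black diamonds are the fit over all libraries and open markers the single letters A, B and C. The diamonds lie between -0.225 and 0.236 while single letters reach 0.601 and -0.675.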

How the data were processed

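RNA of sorted cells was sequenced by the authors. Per the submitters' processing notes, which state no role or order, the tools were Salmon 0.10.0, DESeq2 1.18.1, Trimmomatic 0.38 and FastQC 0.11.7, with GRCm38.p6 as the build. The authors deposited log2 values, called variance-stabilised counts in the labels, for 20555 gene identifiers in 11 microglia libraries; the PBS sample with letter C was not analysed here. Of the identifiers, 20537 had a symbol in the reference gene table. The authors' deposited table of 238 genes holds for each gene a signal (the mean of normalised counts), an authors' fold on a log2 scale, 2 scores (test statistic and standard error), and p-values with adjusted p-values of any group difference, the highest 0.0498. Normalised counts were recovered with a curve through those 238 means (largest error for genes held out 1.39%). The curve is not anchored below a mean of 54.3, so low counts are approximate. Read depth is unknown.

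KO1 minus KO2 was fitted in limma (version 3.58.1, R version 4.3.3) to the log2 values of the 13950 varying genes, with a mean-variance trend, all 11 libraries in 1 fit, no term for the letter, two-sided tests and Benjamini-Hochberg adjustment at 0.05. No sample was dropped or imputed. A gene counts as better expressed when its mean over the libraries lies at least 1 above the floor, 9.8893. Same-letter KO1 and KO2 libraries deviated together from their group means, with correlations of 0.27, 0.15 and 0.49 for letters A, B and C. KO1 and KO2 libraries of different letters gave -0.34 to 0.12, so letter B stood little above them. PBS A and B gave 0.02 to 0.15 with same-letter exosome libraries, so PBS followed its letter weakly. The letters were thus read as pairing KO1 with KO2, from the letters in the sample titles and this check. Genes and 39 lists were chosen with earlier results of these data known. Named were the 12 genes of smallest p in each direction (if short of calls, genes with no overlap that are better expressed), the 2 members of each list with the largest difference, gate and marker genes, Cemip, and 5 genes in each direction of the authors' table; Colec12, Pip4k2c, Il1b, Rsad2 and Isg15 and other list members were named after their values were seen. Some genes that this rule names are not reported here. Mitochondrially encoded transcripts (11 genes) had no row. The fit was tested on simulated data, drawn without a letter effect and only for better expressed genes. That test therefore does not cover Atp10a or the pairing by letter. Alternatives were filters, the block, only the 6 libraries, log2 counts plus 10 or 50, other scalings, library weights and left-out libraries.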

Additional observations from a re-analysis of the deposited data

How the results depend on the processing

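Over 27 fits of KO1 minus KO2, 18 called 0 genes, 8 called 1 and 1 called 3; Atp10a was called in 9 of the 24 fits that held it, with an adjusted p of 0.00944 to 0.966. The count was 0 with either filter on low values (which removes Atp10a), with the letter as a replicate block, with only the 6 KO1 and KO2 libraries, with or without the replicate block, with all libraries of letter A, B or C left out, and with the filter and the replicate block together. Leaving out single libraries gave 0 to 3 genes; the 3, without PBS A, added Herc3 and Tesk2, higher in KO2. The replicate block changed no other call of KO1 minus KO2. Intervals within 1 unit numbered 5117 and 1420 with the filters at 1 and 2 above the floor, by fewer genes tested, and 4320 and 5905 on log2 counts plus 10 and plus 50. Among better expressed genes 1243 kept 1 direction in 3 of 3 letters and 385 did not overlap. KO1 minus WT called 0 with either filter or the replicate block, and 0 to 1 with single libraries left out. KO1 minus PBS called 0 with either filter, 9 with the replicate block and 0 to 77 with single libraries left out; KO2 minus PBS called 8 with the replicate block and 0 to 71. The high counts, 77 and 52 in KO1 without PBS A and PBS B, have a lone PBS library, assumed to vary like the other groups; of them 66 and 43 genes were at the floor in every library but that one.

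Of 2642 named gene values under alternatives 2563 kept direction and call and 15 were Atp10a losing its call. A further 64 values of 34 genes, none of which had passed, changed sign, and the cause was not tested. The fits with single libraries left out hold no term for the letter. Without a KO1 or KO2 library they therefore compare KO1 and KO2 over unequal letters. Cd74, Cd86, Ctsc, Ifit1 and Irgm1 changed sign in such fits, although KO2 was higher in each letter. With single libraries left out the differences ran from -0.721 to 1.145 for Acod1, -0.146 to 0.839 for Arg2, -0.065 to 0.27 for C1qc, -0.869 to 0.065 for Ccl9, -0.36 to 0.03 for Ccr1, -0.319 to 0.033 for Cd44, -0.708 to 0.14 for Cd74, -0.635 to 0.059 for Cd86, -0.382 to 0.115 for Cst3, -0.401 to 0.006 for Ctsc, -0.269 to 1.359 for Cxcl2, -0.248 to 0.817 for Cxcl5, -0.06 to 0.643 for Fos, -0.008 to 0.551 for H2-Q4, -1.306 to 0.174 for Ifi44, -1.125 to 0.052 for Ifit1, -0.406 to 0.214 for Igtp, -0.261 to 0.108 for Irgm1, -0.379 to 0.135 for Itgam, -0.273 to 0.072 for Mcm3, -0.103 to 0.22 for Mdm2, -0.102 to 1.181 for Ptges, -0.263 to 0.466 for Socs3, -0.035 to 0.564 for Tgfbr1, -1.298 to 0.229 for Thbs1, -0.021 to 0.31 for Tmem119, -0.354 to 0.045 for Trem2, -0.468 to 0.046 for Vim and -0.608 to 0.023 for Zbp1. Without letter A the sign changed for Eif2ak3 (0.057), Itgam (0.159), Lipa (0.051), Mcm3 (0.17), Msmo1 (0.019), Ptges (-0.066), Ptprc (-0.045) and Socs3 (-0.125), without letter B for Fabp5 (0.071), Igtp (0.057), Mdm2 (-0.063), Tgfbr1 (-0.252) and Vim (0.083), and without letter C for Ccl9 (0.237), Cst3 (0.158) and Trem2 (0.042). Library quality weights turned Acod1 (-0.017) and Socs3 (-0.047). Of 568 list medians under alternatives 493 moved by less than the spread between letters and 75 by more.

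The letter cannot be told apart from whatever animals, cultures or days it stands for.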
